A study of Mus musculus with 12 samples.

Results

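Hearts collected 72 h after induction of an expanded CUG repeat RNA were set against untreated hearts of MCM mice, with 3 hearts and 1 array per heart in each group. These 6 hearts, chosen by their labelled titles, are 6 of the series' 12 samples. The other arrays are described only as background. They also enter the normalization, the probe filter, the choice of probe for each gene and the shared fit behind the p-values. The 72 h hearts came from EpA960/MCM bitransgenic FVB mice of 2 to 4 months, a heart-specific and tamoxifen-inducible model of myotonic dystrophy type 1 (DM1), given tamoxifen at 20 mg/kg by intraperitoneal injection either once or 5 times on consecutive days. The MCM hearts came from adult FVB mice labelled as untreated MCM controls, so tamoxifen, the EpA960 transgene and the repeat RNA all differ between the groups and cannot be told apart. Background groups were 3 EpA960/MCM hearts collected at 1 week, 2 adult wildtype hearts and 1 embryonic wildtype heart, all FVB. The schedule of injections used for each time, the sex of the mice and whether any hearts were pooled are not given in the sources used here.

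DM1 is caused by an expanded CTG repeat in the 3′ untranslated region of DMPK. The transcribed CUG repeat sequesters MBNL splicing regulators, is accompanied by higher CELF1 protein, and in the heart the disease is known for conduction defects and arrhythmia. In the model, a recombinase that enters the nucleus only with tamoxifen switches on a repeat transgene in heart muscle cells. No probe used here is annotated to that transgene, so its induction was not measured. Heart identity was checked with the major adult myosin Myh6, at log2 signals of 15.96, 15.71 and 15.98 in 72 h hearts and 15.97 to 16.01 in MCM hearts.

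Signals are Illumina bead intensities after background correction, quantile normalization and log2, 1 unit being a 2-fold step. A probe counted as detected on an array at a detection p below 0.01, and 10167 genes passed the filter on dim probes, which kept a probe detected on every array of at least 1 group. Between 14202 and 15282 probes were detected on the 72 h arrays and between 14401 and 15154 on the MCM arrays, with a median of 41 beads per probe. The raw signal at the 1st percentile of probes, near the array's background, was 54.4 to 58.1 in 72 h hearts and 63.0 to 67.6 in MCM hearts, so it moved with the group before correction; its part in the results was not tested. Nothing in the labels says whether replicates came from separate litters or preparations. The p-values measure the spread between samples within groups, estimated jointly over all groups of the series with more than 1 array.

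Several arrays stood apart. The first principal component of the 6 arrays held 54.5% of the variance and set 72 h replicate 2 (score -0.89) against the other 5 arrays (0.00 to 0.30). The second held 18.7% and placed replicate 3 of both groups on one side, at 0.35 for 72 h and 0.59 for MCM. Sex-linked transcripts also split the groups: Xist, transcribed from the inactive X chromosome, was at 11.44, 11.59 and 5.01 in 72 h hearts and 10.81, 11.38 and 5.07 in MCM hearts. The Y-linked Eif2s3y was at 5.16, 5.17 and 10.97 in 72 h hearts and 9.79, 5.04 and 11.07 in MCM hearts, so MCM replicate 1 carried both signals. Results are therefore given heart by heart, and those that changed without 1 of these arrays are given with and without it. The background 1 week hearts were all dark for Xist, at 4.97, 4.94 and 4.98. The part of sex in comparisons with 1 week hearts was not tested.

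A short list of genes passed the test between the 72 h and MCM hearts. In the limma fit with Benjamini-Hochberg adjustment, 27 of 10167 genes (0.266%) had an adjusted p below 0.05, 18 of them higher at 72 h (0.177%) and 9 lower (0.0885%). The count was 54 without 72 h replicate 3, 15 in a fit to these 6 arrays alone (13 higher and 2 lower) and 561 with array weights. At an unadjusted p below 0.05 there were 761 genes (7.49%). The groups did not overlap for 540 genes with the 72 h hearts above (5.31%) and 579 with them below (5.69%). With 3 hearts a group, non-overlap was thus common over all genes and is not a result in itself. The plot of these 27 genes by heart shows how far each 72 h heart lay from the MCM hearts.

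**Figure D1:**
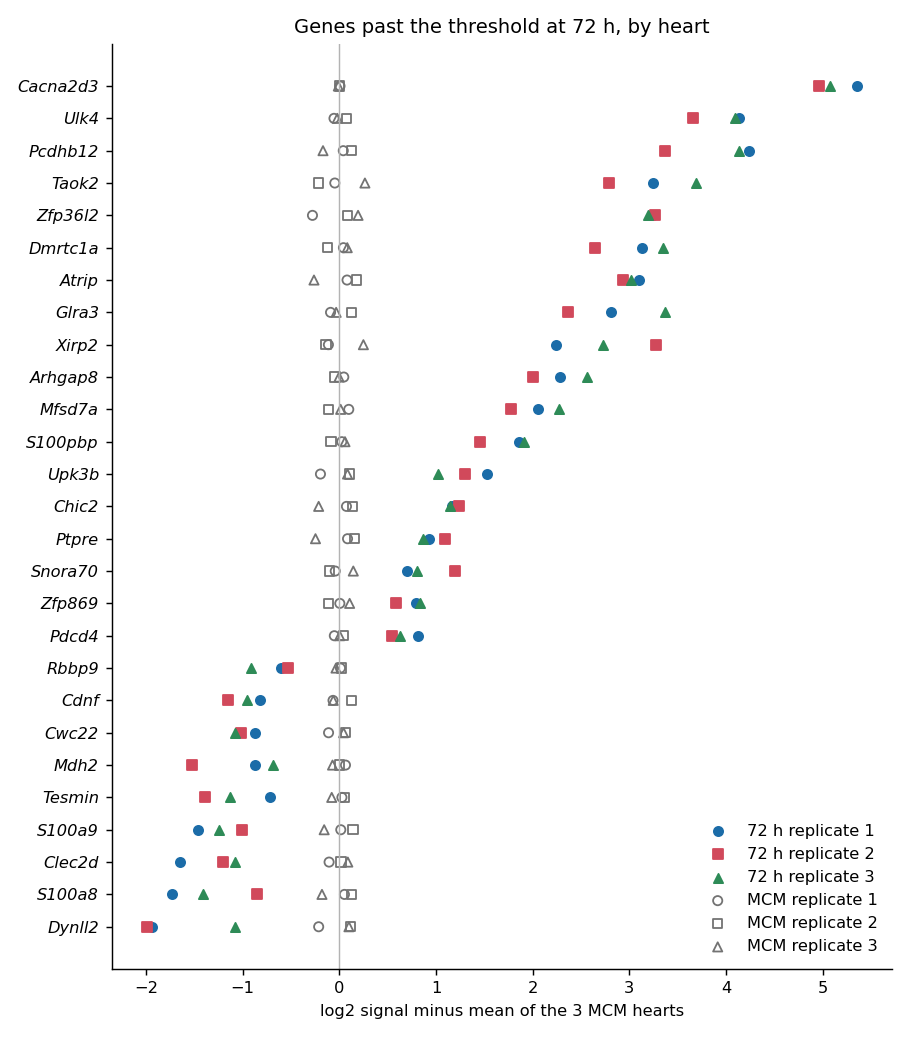
Log2 signal minus the mean of the 3 MCM hearts (horizontal axis) for the 27 genes past adjusted p 0.05, ordered by mean difference. Filled points are the 72 h hearts and open points the MCM hearts, with circle, square and triangle for replicates 1, 2 and 3. Cacna2d3 lay about 5 log2 units above MCM in each 72 h heart (5.35, 4.96 and 5.08), and for no gene did the groups overlap.

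Many of the widest gaps belonged to probes that were dark in uninduced hearts. Of the 18 genes that rose, 10 were represented by a probe detected on no MCM and no adult wildtype array, and 9 of these 10 probes were detected on all 3 72 h arrays. The probe filter can build in part of this. It keeps a probe dark in those hearts only if every array of another group detected it. Mfsd7a is not dark as a gene: its other kept probe was detected on all 3 MCM arrays. They code for proteins of unlike roles: a calcium channel subunit (Cacna2d3), a pseudokinase (Ulk4), a protocadherin (Pcdhb12), a MAP kinase kinase kinase (Taok2), an RNA-binding protein of mRNA decay (Zfp36l2), a glycine receptor subunit (Glra3), and Arhgap8, Dmrtc1a, Mfsd7a and S100pbp. By a looser measure, 1444 of all 10167 genes tested were dark on every MCM array, whatever the adult wildtype arrays showed. Upk3b and Snora70, also among the 18, were dark by that looser measure.

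Cacna2d3 signals were 10.73, 10.33 and 10.45 in 72 h hearts and 5.38, 5.37 and 5.36 in MCM hearts. The 72 h hearts lay close together, and the Cacna2d3 mean was at least 12.7-fold higher (log2 difference 5.13 ± 0.13 SE, limma adjusted p = 7.13e-10). The bound sets the 72 h mean against the lowest detected signal on each MCM array, because the MCM signal itself was not above background. Ulk4 followed at 9.15, 8.68 and 9.11 in 72 h hearts and 4.96, 5.09 and 5.0 in MCM hearts, at least 4.43-fold higher (3.96 ± 0.15, adjusted p = 3.58e-08). Pcdhb12 was at 9.42, 8.54 and 9.31 in 72 h hearts and 5.22, 5.30 and 5.01 in MCM hearts, at least 4.77-fold higher (3.91 ± 0.21, adjusted p = 1.14e-06). In both genes replicate 2 was the lowest of the 72 h hearts.

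Taok2 was at 9.12, 8.67 and 9.56 in 72 h hearts and 5.83, 5.66 and 6.14 in MCM hearts. Zfp36l2 had the tightest 72 h values of these genes, 8.78, 8.79 and 8.72, against 5.25, 5.61 and 5.72 in MCM hearts. Dmrtc1a was at 8.20, 7.73 and 8.42 in 72 h hearts and 5.12, 4.95 and 5.16 in MCM hearts. All 3 genes rose, at least 4.86-fold for Taok2, 3.80-fold for Zfp36l2 and 2.43-fold for Dmrtc1a. Glra3 was at 7.82, 7.38 and 8.38 in 72 h hearts and 4.92, 5.13 and 4.98 in MCM hearts. Arhgap8 was at 7.51, 7.24 and 7.80 in 72 h hearts and 5.28, 5.19 and 5.23 in MCM hearts. Mfsd7a was at 8.13, 7.84 and 8.35 in 72 h hearts and 6.17, 5.96 and 6.09 in MCM hearts. For these 3 genes replicate 3 was the highest and replicate 2 the lowest 72 h heart. S100pbp, at 6.90, 6.50 and 6.96 in 72 h hearts and 5.07, 4.96 and 5.10 in MCM hearts, was detected on 1 array of the 72 h group, so no fold is given.

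Replicate 2, the heart that stood farthest from MCM over all genes, was the lowest of the 3 72 h hearts in 9 of these 10 genes, and replicate 3 was the highest in 6. The order in these genes was thus unlike the order over all genes. At 1 week all 10 were higher than in every 72 h heart: Cacna2d3 averaged 13.32, Ulk4 12.51 and Zfp36l2 11.40. The probe filter can build in part of this too. S100pbp, detected on 1 72 h array, was kept because all 3 1 week arrays detected it. How much came from the filter was not tested. The adult wildtype hearts were dark for all 10 because the genes were chosen that way, at 5.54 and 5.45 for Cacna2d3 and 4.91 and 4.99 for Ulk4. Against adult wildtype, the same 72 h arrays were at least 12.5-fold higher for Cacna2d3, 4.37-fold for Ulk4 and 3.75-fold for Zfp36l2. These folds follow from that choice and from the same 72 h arrays, so they are not a second test.

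Other rises started from a signal that MCM hearts already had. Atrip, which binds the DNA damage kinase ATR, was at 10.81, 10.65 and 10.73 in 72 h hearts and 7.79, 7.89 and 7.45 in MCM hearts, 8.10-fold higher (3.02 ± 0.12, adjusted p = 6.52e-08). Its 72 h hearts spanned less than the MCM hearts. Of the other DNA damage and p53 genes on that list, none passed: 1 of 20 tested genes, Atrip itself, was called, and the list's median difference was 0.06 against -0.002 over all genes. Chic2, which codes for a cysteine-rich membrane-associated protein, was at 11.77, 11.84 and 11.75 in 72 h hearts and 10.68, 10.74 and 10.39 in MCM hearts (2.28-fold). The phosphatase gene Ptpre was at 12.24, 12.41 and 12.18 in 72 h hearts and 11.40, 11.47 and 11.06 in MCM hearts (1.95-fold, 0.96 ± 0.12, adjusted p = 0.00199). Both rose in each heart by a similar amount, 2.22-fold to 2.36-fold for Chic2 and 1.82-fold to 2.14-fold for Ptpre.

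Pdcd4, a translation inhibitor, was at 11.20, 10.93 and 11.01 in 72 h hearts and 10.33, 10.43 and 10.39 in MCM hearts (1.59-fold, adjusted p = 0.0132). Zfp869, a zinc finger gene, was at 9.25, 9.04 and 9.29 in 72 h hearts and 8.46, 8.34 and 8.56 in MCM hearts (1.67-fold, adjusted p = 0.0236). The small nucleolar RNA Snora70 was at 6.86, 7.35 and 6.96 in 72 h hearts and 6.12, 6.06 and 6.30 in MCM hearts, where it was dark (at least 1.17-fold, adjusted p = 0.0370). These 3 rises were the smallest and the least stable: each was called in 2 of the 6 fits that left out 1 array. The highest adjusted p among those fits was 0.105 for Pdcd4 (without MCM replicate 1), 0.132 for Zfp869 (without MCM replicate 2) and 0.212 for Snora70 (without MCM replicate 1).

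Xirp2 and Upk3b depended on which uninduced heart they were set against. Xirp2, an actin-binding protein of the cardiac intercalated disc and a known MEF2 target, was at 11.89, 12.91 and 12.37 in 72 h hearts and 9.53, 9.50 and 9.89 in MCM hearts (6.72-fold, 2.75 ± 0.22, adjusted p = 3.37e-05). The per-heart folds over the MCM mean were 4.75, 9.66 and 6.62, so replicate 2 was the highest here. Adult wildtype hearts, however, had 12.89 and 13.26, above or level with every 72 h heart, and the difference from them was -0.69 (adjusted p = 0.119). The other kept Xirp2 probe was at 8.05, 9.01 and 8.19 in 72 h hearts and 8.23, 8.21 and 8.34 in MCM hearts and was not called (0.15, adjusted p = 0.893 in the fit over probes). Upk3b, an uroplakin also found on mesothelium, was at 7.76, 7.53 and 7.25 in 72 h hearts and 6.03, 6.34 and 6.31 in MCM hearts, where its probe was dark (at least 1.60-fold, adjusted p = 0.00247). Adult wildtype hearts had 7.61 and 7.72 for Upk3b, a difference of -0.15 (adjusted p = 0.653).

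The 9 genes that fell included the pair S100a8 and S100a9, which code for calcium-binding proteins stored in neutrophils and released as the dimer calprotectin. Because their 72 h values fell together and because the matrix gene Timp1 below carried the largest single-heart change, the 250 bases before the annotated start of each are shown, from RefSeq on build GRCm38.p6. Capitals mark matches on either strand to TTNNGNAA, a core of C/EBP binding sites, and to TATAAA, the TATA box; TGANTCA, the AP-1 motif, was also searched and matched in none of the 3 windows. Of 32851 RefSeq promoter windows of this length, 36.8% hold the C/EBP letters, 12.4% the TATA letters and 6.75% the AP-1 letters.
S100a8, chr3:90668821-90669070, plus strand: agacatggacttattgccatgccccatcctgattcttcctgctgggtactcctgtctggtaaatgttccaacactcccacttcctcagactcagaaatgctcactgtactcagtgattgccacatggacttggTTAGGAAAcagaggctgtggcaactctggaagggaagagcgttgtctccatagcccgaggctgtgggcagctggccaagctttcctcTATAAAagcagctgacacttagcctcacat
S100a9, chr3:90695722-90695971, minus strand: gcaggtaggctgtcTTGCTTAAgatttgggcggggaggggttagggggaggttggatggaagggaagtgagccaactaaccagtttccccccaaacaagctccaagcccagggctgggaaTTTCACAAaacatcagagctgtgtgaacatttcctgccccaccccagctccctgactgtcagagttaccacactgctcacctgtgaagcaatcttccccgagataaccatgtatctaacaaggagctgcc
Timp1, chrX:20869916-20870165, plus strand: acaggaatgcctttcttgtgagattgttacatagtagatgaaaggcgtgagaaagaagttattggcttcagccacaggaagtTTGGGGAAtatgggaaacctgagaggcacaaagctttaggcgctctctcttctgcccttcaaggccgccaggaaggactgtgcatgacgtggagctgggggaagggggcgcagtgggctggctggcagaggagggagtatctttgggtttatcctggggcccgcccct
The S100a8 window holds 1 C/EBP match starting 117 bases before the start and a TATA match 30 bases before it. The S100a9 window holds 2 C/EBP matches, starting 236 and 130 bases before the start, and Timp1 holds 1, starting 168 bases before it. A match describes the letters and does not show binding.

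S100a8 was at 8.36, 9.24 and 8.68 in 72 h hearts and 10.14, 10.22 and 9.91 in MCM hearts, 2.52-fold lower (-1.33 ± 0.19, adjusted p = 0.00894). S100a9 was at 7.26, 7.73 and 7.49 in 72 h hearts and 8.74, 8.87 and 8.57 in MCM hearts, 2.35-fold lower (-1.24 ± 0.16, adjusted p = 0.00325). In both genes replicate 1 was the lowest heart and replicate 2 the nearest to MCM, and adult wildtype lay between the groups for S100a8 (9.51 and 9.61) and near MCM for S100a9 (8.73 and 8.45). At 1 week both were higher than in any MCM heart, at 11.54, 11.75 and 11.33 for S100a8 and 9.93, 10.10 and 9.78 for S100a9. In tissue RNA such as this, fewer cells of a type and less RNA per cell cannot be told apart. Another neutrophil marker, Retnlg, was at 5.14, 5.84 and 5.45 in 72 h hearts, where it was dark, and 6.84, 7.22 and 6.38 in MCM hearts (adjusted p = 0.0656). Of 17 neutrophil markers 7 were tested, 2 were called (both S100 genes), and the median difference was 0.08; the mean log2 signal over the 7 was 6.28 to 7.11 in 72 h hearts and 6.90 to 7.06 in MCM hearts. The call for S100a8 was lost without MCM replicate 1 (adjusted p = 0.0748) or MCM replicate 2 (adjusted p = 0.0762), while S100a9 kept its call in all 6 such fits. In the limma fit to these 6 arrays alone both calls were lost (adjusted p = 0.172 for S100a8 and 0.0684 for S100a9).

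A pair of mitochondrial and secretory genes also fell. Mdh2, the malate dehydrogenase of the TCA cycle, was at 12.41, 11.76 and 12.60 in 72 h hearts and 13.35, 13.29 and 13.21 in MCM hearts (2.04-fold lower, -1.03 ± 0.17, adjusted p = 0.0265). It was the single gene called among 40 tested genes of the respiratory chain and TCA cycle, whose median difference was -0.15, and at 1 week it was lower still, at 10.31, 10.44 and 10.18. Adult wildtype hearts, at 13.40 and 13.48, lay with MCM. Cdnf, a neurotrophic factor resident in the endoplasmic reticulum, was at 8.25, 7.93 and 8.12 in 72 h hearts and 9.01, 9.20 and 9.01 in MCM hearts (1.96-fold lower, adjusted p = 0.00864). None of the other 14 tested endoplasmic reticulum chaperone genes fell. The Mdh2 call was lost without any 1 of the MCM hearts (adjusted p 0.0851 to 0.175), and the Cdnf call without MCM replicate 2 (adjusted p = 0.0652).

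For the remaining falls, adult wildtype hearts often lay with the 72 h hearts. Dynll2, a dynein light chain, was at 8.45, 8.40 and 9.31 in 72 h hearts and 10.18, 10.50 and 10.49 in MCM hearts (3.18-fold lower, adjusted p = 0.0370), but at 9.20 and 8.12 in adult wildtype. Clec2d, a ligand of a natural killer cell receptor, was at 9.14, 9.58 and 9.70 in 72 h hearts and 10.68, 10.80 and 10.87 in MCM hearts (2.48-fold lower, adjusted p = 0.00864), and at 9.76 and 9.57 in adult wildtype. Cwc22, a spliceosome protein, was at 9.08, 8.94 and 8.87 in 72 h hearts and 9.84, 10.02 and 9.99 in MCM hearts (1.98-fold lower, adjusted p = 0.000851), and at 8.96 and 8.80 in adult wildtype. In these 3 genes every 72 h and adult wildtype heart lay below every MCM heart. Rbbp9 was at 9.40, 9.47 and 9.09 in 72 h hearts and 10.02, 10.03 and 9.97 in MCM hearts (1.61-fold lower, adjusted p = 0.0461), yet at 8.79 and 8.84 in adult wildtype, so the 72 h hearts lay between both uninduced groups. Tesmin, a testis-enriched metallothionein-like gene, was at 6.66, 5.99 and 6.25 in 72 h hearts, where it was dark, and 7.41, 7.43 and 7.30 in MCM hearts (at least 1.43-fold lower, adjusted p = 0.0245), with 7.08 and 7.36 in adult wildtype.

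Of these falls, Cwc22 alone kept its call in all 6 fits that left out 1 array. Dynll2 kept it without 72 h replicates 2 and 3, Clec2d in every fit but those without MCM replicate 2 or 3, Tesmin without any 1 of the 72 h hearts and Rbbp9 only without 72 h replicate 2, with highest adjusted p of 0.206, 0.0652, 0.136 and 0.242. Over all 27 genes, 17 kept their call in all 6 fits that left out 1 array. The limma fit to the 6 arrays alone lost the calls for Dynll2, Tesmin and Rbbp9 (adjusted p = 0.0881, 0.256 and 0.291). Cwc22, Cdnf and Rbbp9, 3 of the 9 falling genes, lie on chromosome 2, as does Xirp2; that chromosome holds 7.71% of the tested genes.

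Where a called gene had several probes, they often disagreed. Of the 27 genes, 16 rested on 1 kept probe, and the other 11 had 19 further kept probes, of which 3 passed the threshold and 16 did not. A second Chic2 probe rose by 1.37 on the log2 scale, a second Upk3b probe, dark in MCM hearts, also rose, and a second Cwc22 probe, dark at 72 h, was at least 3.03-fold lower. The 3 further Pdcd4 probes differed by -0.15, 0.06 and -0.11, and the 2 further Arhgap8 probes, dark on all arrays of both groups, by -0.01 and 0.10. The other Mfsd7a probe was at 7.25, 7.02 and 7.32 in 72 h hearts and 7.51, 7.19 and 7.69 in MCM hearts, and did not pass (-0.27). Values for these genes are therefore values of the probes named by their annotation.

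Among all 18370 kept probes 42 passed (0.229%), which added 15 to the 27 that stand for a gene. Of those, 10 belonged to genes whose main probe is another one. A second probe of Adam15, a metalloprotease gene, was at 9.74, 9.43 and 9.72 in 72 h hearts and 5.14, 5.28 and 5.05 in MCM hearts (at least 6.95-fold higher, adjusted p = 2.70e-09), while the probe that stands for Adam15 was at 9.47, 9.84 and 9.32 in 72 h hearts and 9.44, 9.63 and 9.50 in MCM hearts. A second probe of Pdlim2, a PDZ and LIM domain gene, was at 9.21, 8.82 and 9.13 in 72 h hearts and 6.19, 5.99 and 6.01 in MCM hearts (at least 4.65-fold), while its main probe differed by 0.35. A second probe of the amino acid transporter Slc38a1, dark in MCM hearts, was at least 3.15-fold higher, with a main-probe difference of 1.27. A second probe of the lipoprotein receptor Vldlr rose by 1.90, with -0.21 for its main probe, and that of Vmp1, an autophagy gene, rose by 0.95, with 0.22 for its main probe. Falling second probes of Ptpmt1, a mitochondrial phosphatase (detected on 1 of the 72 h arrays), and Mkks, a chaperonin-like gene, differed by -1.35 and -0.96, with 0.08 and -0.18 for their main probes; both genes lie on chromosome 2, like Cwc22.

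Another 5 of the 42 probes carry no gene name, 4 higher and 1 lower, of 2711 unnamed probes kept (0.184%). Probe ILMN_1241878 was at 9.74, 9.35 and 9.74 in 72 h hearts and 4.96, 5.10 and 4.98 in MCM hearts (at least 6.86-fold higher, adjusted p = 2.70e-09). Probe ILMN_2571934 was at 9.02, 9.10 and 9.01 in 72 h hearts and 6.71, 6.96 and 6.09 in MCM hearts (5.48-fold higher). The falling probe, ILMN_2738233, was at 5.35, 5.48 and 5.24 in 72 h hearts, where it was dark, and 7.95, 8.03 and 8.14 in MCM hearts (at least 2.26-fold lower, adjusted p = 2.84e-07). It averaged 5.44 in adult wildtype, so this probe too was high in MCM hearts alone among these 3 groups.

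Taken heart by heart, the 3 hearts were far from alike. Genes at least 2-fold from the MCM mean and outside the MCM range numbered 58 in replicate 1 (0.570%), 642 in replicate 2 (6.31%) and 75 in replicate 3 (0.738%). The split was 42 higher (0.413%) and 16 lower (0.157%) in replicate 1, 505 (4.97%) and 137 (1.35%) in replicate 2, and 27 (0.266%) and 48 (0.472%) in replicate 3. The 1 week hearts had 1615, 1689 and 1819 such genes, and the adult wildtype hearts 291 and 289. By this count replicate 2 lay between the other 72 h hearts and the 1 week hearts, and replicates 1 and 3 had fewer such genes than either adult wildtype heart. These counts compare single hearts and carry no test.

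**Figure D2:**
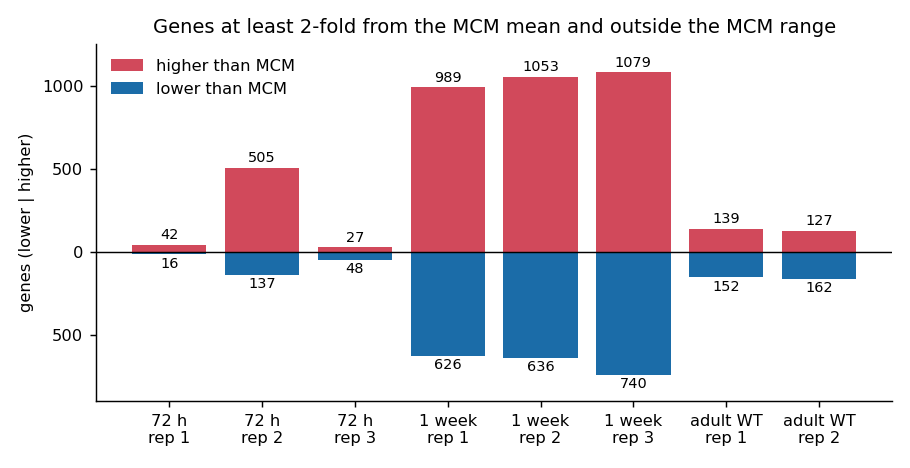
Number of genes in each heart that lay at least 2-fold above (red, upward) or below (blue, downward) the MCM mean and outside the range of the 3 MCM hearts, of 10167 tested. Among the 72 h hearts, replicate 2 had 505 higher and 137 lower genes, replicate 1 had 42 and 16, and replicate 3 had 27 and 48.

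The 505 genes higher in replicate 2 had a median difference from the MCM mean of 1.37 there, against 0.17 in replicate 1 and -0.06 in replicate 3. The 137 lower genes had medians of -1.21 in replicate 2, -0.25 in replicate 1 and -0.03 in replicate 3. Since the genes were chosen on replicate 2, its own values only describe that choice.

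Timp1, an inhibitor of matrix metalloproteases whose promoter is shown above, was at 9.41, 13.75 and 8.36 in 72 h hearts and 8.04, 7.98 and 7.41 in MCM hearts. Its raw signal was 699, 14418 and 348 in 72 h hearts and 334, 304 and 242 in MCM hearts, with a bead standard error of 3.38% to 6.53% of the signal in 72 h hearts. The groups did not overlap, yet the mean difference of 2.70 ± 0.97 had an adjusted p of 0.632, and without replicate 2 it was 1.08 (adjusted p = 0.130). Timp1 stood 61.6-fold above the MCM mean in replicate 2, 3.04-fold in replicate 1 and 1.46-fold in replicate 3, and reached 13.73 to 14.14 at 1 week. Tenascin C (Tnc), a matrix protein of wound repair, was at 6.44, 11.23 and 5.65 in 72 h hearts and 5.39, 6.17 and 5.52 in MCM hearts, detected in replicate 2 alone of these 6 hearts. Fibronectin (Fn1) was at 8.36, 10.79 and 8.31 in 72 h hearts and 8.36, 8.43 and 8.18 in MCM hearts. Over 36 tested matrix genes the median differences were 0.15, 1.24 and -0.18 in replicates 1, 2 and 3, with 22 genes 2-fold up in replicate 2, 1 in replicate 1 and none in replicate 3. limma called none of the 36, and 2 had an unadjusted p below 0.05.

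Most inflammatory genes tested were also highest in replicate 2, 21 of 25. Here and in the lists that follow, such counts describe the lists only. The share of all genes that were highest in replicate 2, or above all MCM hearts there, was not counted. Over all genes, 4.97% were 2-fold up in replicate 2. Serpina3n, an acute phase protease inhibitor, was at 9.53, 12.49 and 9.95 in 72 h hearts and 9.71, 9.71 and 9.76 in MCM hearts. Socs3, a feedback inhibitor of cytokine signalling, was at 7.37, 9.96 and 7.27 in 72 h hearts and 7.53, 7.95 and 7.45 in MCM hearts. The iron-binding Lcn2 was at 7.31, 9.68 and 6.38 in 72 h hearts and 7.44, 7.96 and 6.93 in MCM hearts. In all 3 genes replicate 2 was the one 72 h heart well above the MCM range. Of 25 tested cytokine, chemokine and acute phase genes, 15 were 2-fold up in replicate 2 and none in replicates 1 and 3, with medians of -0.19, 1.22 and -0.14. The monocyte chemokines Ccl7 and Ccl12 were at 8.11, 10.53 and 8.52, and at 7.49, 10.01 and 7.62, in 72 h hearts, against 8.47, 8.48 and 9.02, and 8.21, 7.90 and 8.44, in MCM hearts.

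Markers of macrophages and monocytes were higher in replicate 2 as well. Lgals3 (galectin-3) was at 8.85, 11.48 and 8.47 in 72 h hearts and 8.19, 8.77 and 8.0 in MCM hearts. Chil3, a secreted macrophage protein, was at 5.32, 8.65 and 5.73 in 72 h hearts and 4.96, 5.30 and 5.45 in MCM hearts, where it was dark. Of 22 tested markers of 28 listed, replicate 2 was the highest 72 h heart in 20 and above all MCM hearts in 20. Their mean log2 signal was 8.76, 9.91 and 8.62 in 72 h hearts and 8.65, 8.73 and 8.55 in MCM hearts, and at 1 week, where 53.8% of all genes were called against the same MCM hearts and 27.2% were higher, 20 of the 22 were called higher. The part of these cells in the other replicate 2 differences was not tested.

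Of 41 tested cell cycle genes, replicate 2 was the highest 72 h heart in 34. Cdk1, the mitotic kinase, was at 5.40, 8.5 and 5.62 in 72 h hearts and 5.56, 5.31 and 5.36 in MCM hearts. Topoisomerase Top2a was at 5.29, 7.78 and 5.32 in 72 h hearts and 5.28, 4.95 and 5.17 in MCM hearts. Both were dark everywhere among the 6 hearts but in replicate 2. The medians over these 41 genes were -0.01, 0.85 and 0.04, with 18 genes 2-fold up in replicate 2 and none in the others, and 21 of the 41 were dark on all MCM arrays. H2ac7, a replication-dependent histone gene named for its high value in replicate 2, was at 9.91, 12.29 and 9.18 in 72 h hearts and 9.55, 9.50 and 9.39 in MCM hearts. Histone genes of this family are near-identical, so their probes cannot be assigned to 1 copy with certainty.

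Of 13 tested hypertrophy and fetal cardiac genes, replicate 2 was the highest 72 h heart in 10. Nppb, the gene of B-type natriuretic peptide, was at 13.99, 15.73 and 13.22 in 72 h hearts and 13.43, 13.50 and 13.50 in MCM hearts. Ankrd2, a stretch-responsive muscle gene, was at 5.24, 8.91 and 5.29 in 72 h hearts and 5.25, 4.98 and 4.97 in MCM hearts. Nmrk2, a kinase of NAD synthesis induced in stressed muscle, was at 10.10, 12.32 and 8.53 in 72 h hearts and 9.80, 10.09 and 9.40 in MCM hearts. It differed from the genes above at 1 week, where it lay at 9.75, 9.60 and 9.58, within the MCM range. Nppa, the gene of atrial natriuretic peptide, was instead highest in replicate 1, at 16.07, 15.82 and 14.65 in 72 h hearts and 16.04, 16.07 and 14.22 in MCM hearts. Medians over the 13 genes were 0.30, 1.18 and -0.36, and 6 were 2-fold up in replicate 2.

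Some genes of adult heart function were lower in replicate 2. Kcnip2, a subunit of the transient outward potassium channel, was at 10.11, 8.41 and 10.51 in 72 h hearts and 10.04, 10.01 and 10.19 in MCM hearts. Hopx, a cardiac homeodomain cofactor, was at 14.78, 13.53 and 14.66 in 72 h hearts and 14.67, 14.83 and 14.73 in MCM hearts. Acot1, an acyl-CoA thioesterase, was at 9.87, 8.62 and 10.67 in 72 h hearts and 10.41, 10.27 and 10.92 in MCM hearts. The tubulin glutamylase gene Ttll1 was at 9.81, 7.67 and 10.30 in 72 h hearts and 10.17, 10.15 and 10.03 in MCM hearts. Medians over 33 fatty acid oxidation genes were -0.18, -0.71 and 0.08, over 17 ion channel and gap junction genes 0.02, -0.61 and 0.06, and over 40 respiratory chain and TCA cycle genes -0.08, -0.43 and 0.03. Few of these passed the 2-fold step: 4, 4 and 1 genes in replicate 2. Over all 10167 genes the medians were -0.0016, -0.0014 and -0.009.

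**Figure D3:**
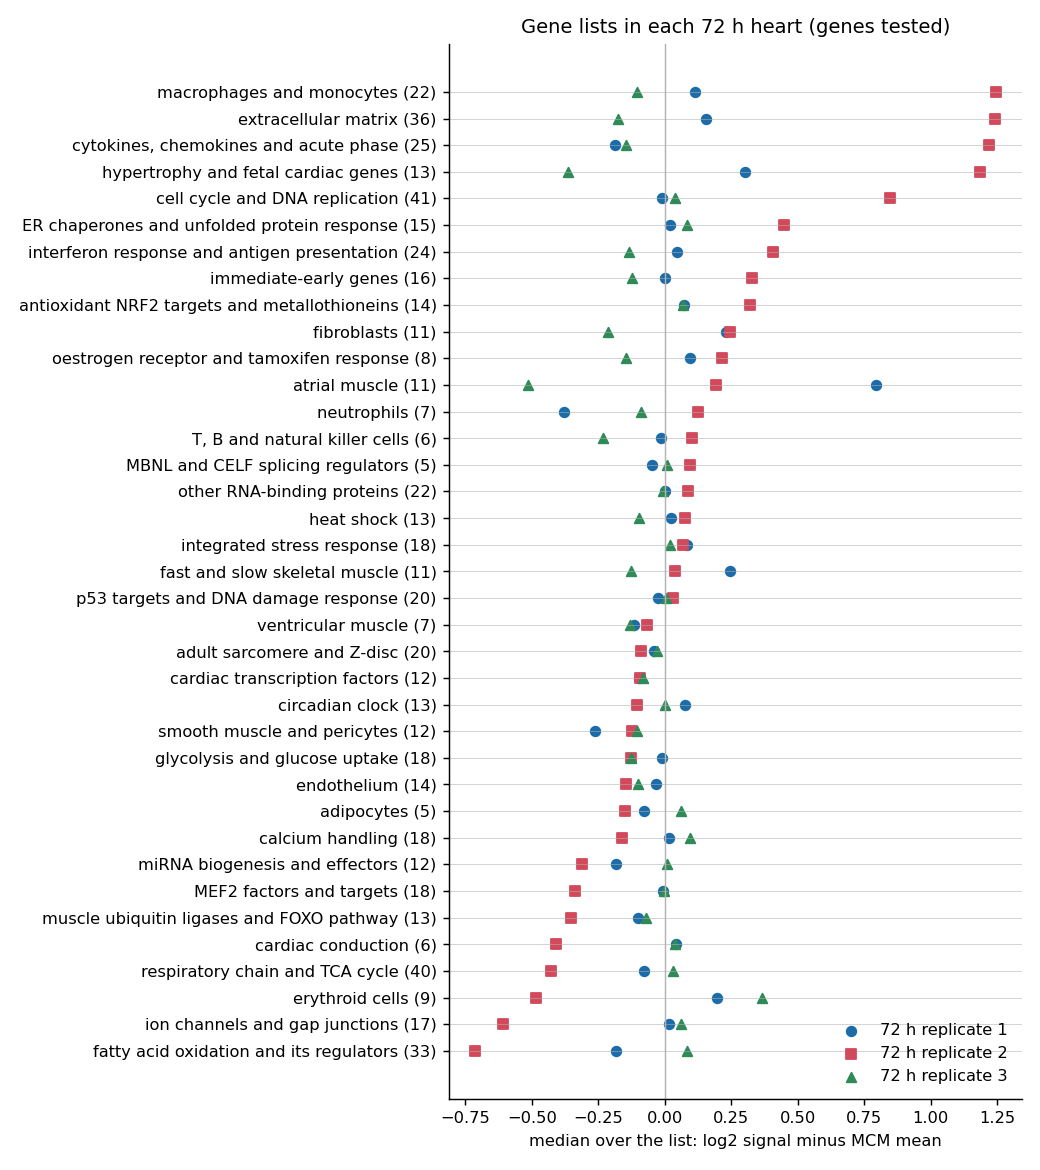
Median difference from the MCM mean (log2, horizontal axis) in each 72 h heart for each gene list with at least 5 tested genes; the number tested is in brackets. Replicate 2 (red squares) ran from -0.71 for fatty acid oxidation to 1.25 for macrophages and monocytes, while replicate 1 (blue circles) ran from -0.38 for neutrophils to 0.80 for atrial muscle and replicate 3 (green triangles) from -0.52 for atrial muscle to 0.37 for erythroid cells.

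The way replicate 2 departed from its companions was set against the 1 week hearts with no array in common: replicate 2 minus the mean of replicates 1 and 3, and 1 week minus adult wildtype. Over 10167 genes Pearson's r was 0.54 and Spearman's rank correlation 0.53; genes are not independent replicates, so this is a description. Of 497 genes at least 1 log2 unit higher in replicate 2, 330 (66.4%) were called higher at 1 week than in adult wildtype, where 24.5% of all genes were, and 5 were called lower. Of 127 genes as far below, 71 (55.9%) were called lower at 1 week, where 24.4% of all genes were, and 7 higher. The probe filter can build in part of the overlap among the higher genes. It admits genes detected on every 1 week array though dark in MCM and adult wildtype hearts. Tnc, Cdk1, Top2a and Ankrd2 are such genes, detected on all 3 1 week arrays and in replicate 2 alone at 72 h. How much of the 66.4% came from this was not tested. Timp1, Tnc, Lgals3 and Serpina3n lay high on both axes, Kcnip2 and Ttll1 low on both. Cacna2d3 lay elsewhere: its difference was 7.82 for 1 week minus adult wildtype and -0.26 for replicate 2 minus its companions.

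**Figure D4:**
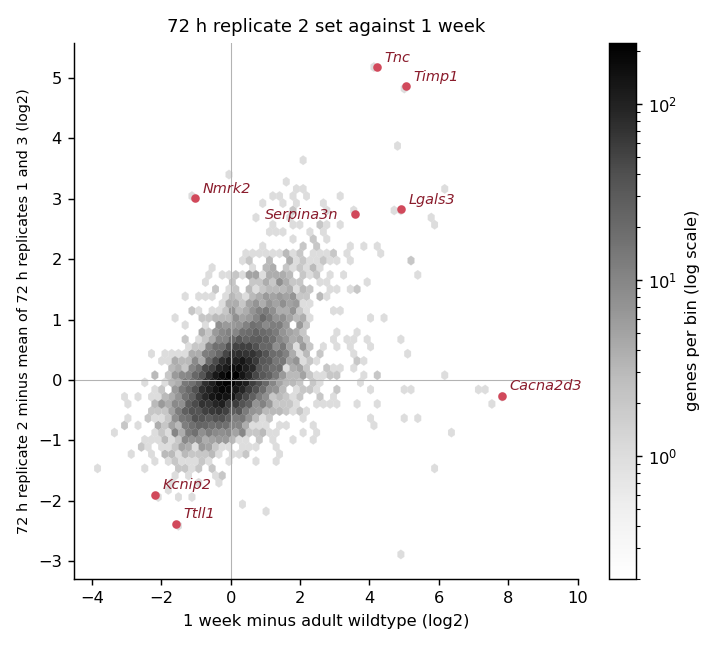
Each hexagon counts genes (grey, log scale) by the log2 difference of 1 week from adult wildtype hearts (horizontal) and of 72 h replicate 2 from the mean of 72 h replicates 1 and 3 (vertical); red points are named genes. The cloud rises from lower left to upper right (r = 0.54 over 10167 genes), with Timp1 and Tnc at the top, Nmrk2 high on the vertical axis alone and Cacna2d3 far to the right near 0.

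Not every list that rose at 1 week was higher in replicate 2. Over 18 tested integrated stress response genes, the medians were 0.08, 0.07 and 0.02 in the 72 h hearts, against 1.73 for 1 week minus MCM. Mthfd2, a mitochondrial folate enzyme, was at 7.86, 9.08 and 7.03 in 72 h hearts and 7.5, 7.46 and 7.14 in MCM hearts, but at 11.74, 11.60 and 11.72 at 1 week. It was 1 of 3 genes of that list 2-fold up in replicate 2. Ppara, the regulator of fatty acid oxidation, was at 9.36, 8.81 and 9.56 in 72 h hearts and 9.67, 9.70 and 9.40 in MCM hearts, but at 6.55, 6.20 and 6.45 at 1 week.

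Atrial genes separated replicates 1 and 3. Myl7, the atrial myosin light chain, was at 14.06, 13.86 and 10.82 in 72 h hearts and 13.52, 14.22 and 9.06 in MCM hearts. Sln (sarcolipin) was at 13.83, 13.23 and 10.53 in 72 h hearts and 13.34, 13.89 and 8.60 in MCM hearts. Replicate 3 was low in both groups. Of 11 tested atrial markers, replicate 3 was the lowest 72 h heart in 8 and the lowest MCM heart in 10, and the mean signal over the list was 11.30, 10.81 and 9.78 in 72 h hearts and 10.92, 11.34 and 9.12 in MCM hearts. Medians of 7 ventricular markers were -0.12, -0.07 and -0.13. Hamp, the gene of hepcidin, was also lowest in replicate 3 of both groups, at 11.28, 8.93 and 7.54 in 72 h hearts and 10.34, 11.05 and 5.48 in MCM hearts. Unlike Myl7 and Sln, Hamp was low in 72 h replicate 2 as well. Lrrc57, a leucine-rich repeat gene, was low in 72 h replicate 3 alone of these 6 hearts, at 9.15, 8.98 and 5.10 in 72 h hearts, 9.35, 8.94 and 9.36 in MCM hearts and 5.20 on average in adult wildtype.

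A few genes set replicate 1 apart. Prkag2, a regulatory subunit of AMP-activated kinase, was at 8.16, 5.72 and 5.75 in 72 h hearts and 8.07, 8.44 and 7.89 in MCM hearts, so replicate 1 lay with MCM and the other 72 h hearts below. The glutathione transferase gene Gstp2 was at 9.57, 7.29 and 7.03 in 72 h hearts and 9.16, 9.36 and 8.70 in MCM hearts. Angptl4, a lipase inhibitor that responds to fasting, was at 6.83, 9.18 and 8.71 in 72 h hearts and 9.65, 7.82 and 10.18 in MCM hearts, so it varied within both groups. None of these 3 was called (adjusted p 0.561 to 0.680).

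**Figure D5:**
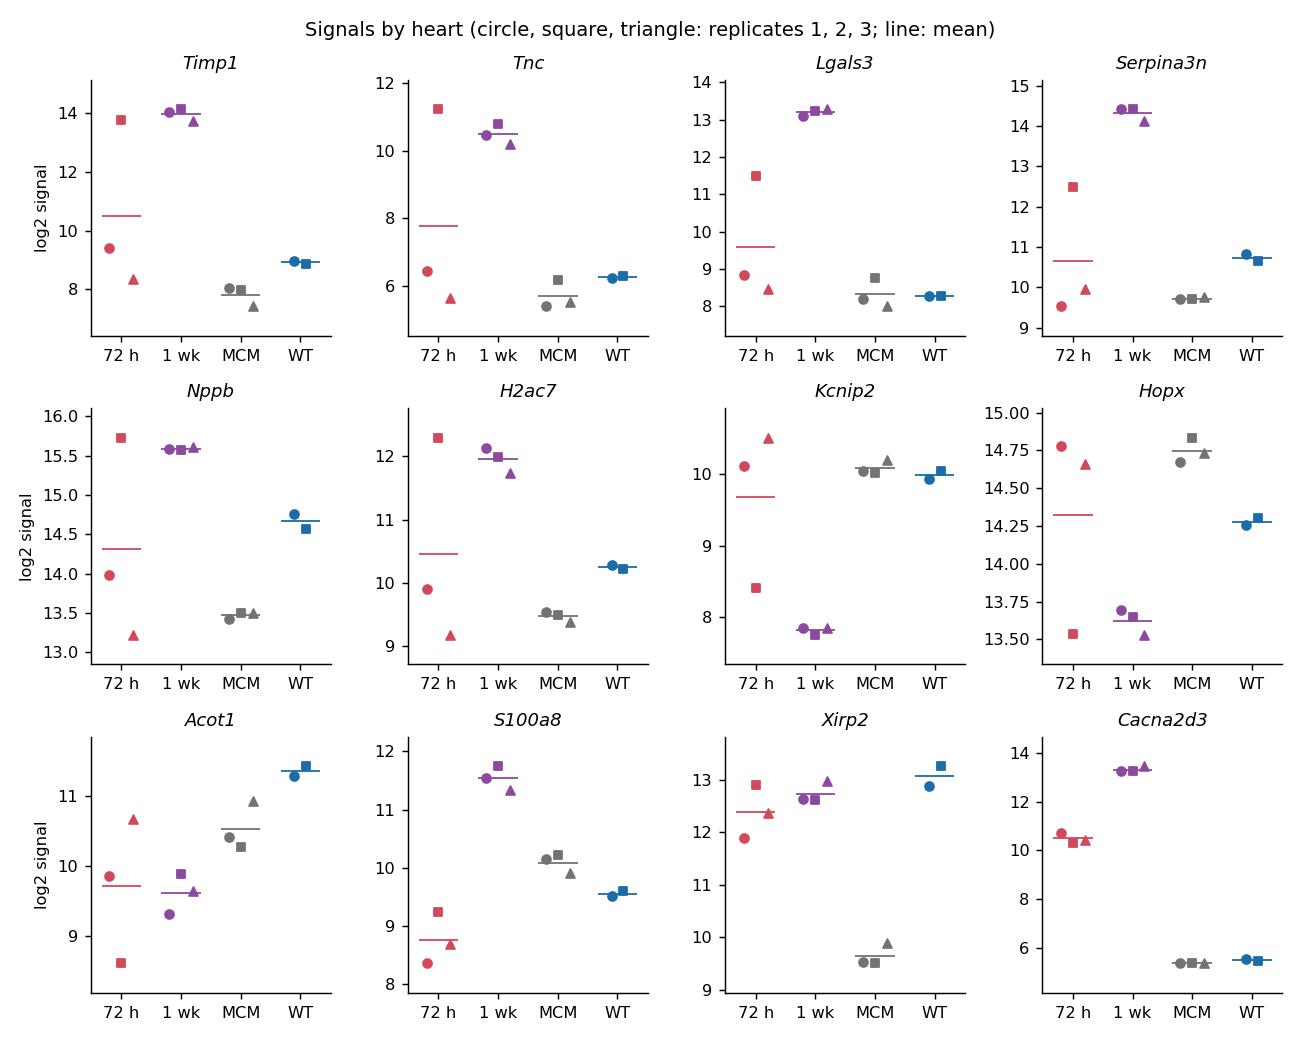
Log2 signal (vertical axis, a separate scale in each panel) of 12 genes in 72 h, 1 week, MCM and adult wildtype (WT) hearts; circle, square and triangle are replicates 1, 2 and 3, and lines are group means. Timp1 to H2ac7 were high in 72 h replicate 2 and at 1 week, Kcnip2 and Hopx low in both, S100a8 was below MCM at 72 h and above it at 1 week, and Xirp2 was low in MCM hearts alone.

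Leaving out replicate 2 kept 26 of the 27 called genes, lost Snora70 (adjusted p = 0.0644) and added 11, for 37 of 10167 (0.364%), 23 higher (0.226%) and 14 lower (0.138%). Differences for the strongest genes barely moved: Cacna2d3 was 5.22 instead of 5.13 and Atrip 3.06 instead of 3.02. Among the additions that fell were Retnlg, dark at 72 h (signal difference -1.52, adjusted p = 0.0105), and Kcnv2, a modifier subunit of potassium channels (-1.13, adjusted p = 0.0186). Kcnv2 was at 7.65, 6.59 and 8.38 in 72 h hearts and 9.16, 8.96 and 9.32 in MCM hearts, and at 5.74, 5.87 and 5.73 at 1 week. Taf15, an RNA-binding protein of the FET family (-1.32, adjusted p = 0.0456), was dark on all 3 72 h arrays, at 6.01, 6.58 and 6.61, against 7.51, 8.01 and 7.37 in MCM hearts. The actin-associated Pdlim3 (-0.64) and Ocel1 (-0.78) also fell.

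The additions with a positive signal difference were Cd177, Ngfr, Sltm, Tsr2, 1700029J07Rik and Ttll11, 6 in all. Cd177, 1700029J07Rik, Ttll11, Pdlim3 and Ocel1 fall outside the naming rule and were chosen after their values were seen. Cd177, a surface protein of neutrophils, was at 6.82, 5.87 and 6.52 in 72 h hearts and 5.20, 5.45 and 5.53 in MCM hearts, with a difference of 1.28 without replicate 2 (adjusted p = 0.00129). Its probe was not above background on any of these 6 arrays, so neither a fold nor a direction of expression is given. The neurotrophin receptor Ngfr was at 7.05, 6.94 and 7.28 in 72 h hearts and 6.29, 5.83 and 5.61 in MCM hearts, where it was dark (adjusted p = 0.0632 with all hearts and 0.0326 without replicate 2). Sltm, a chromatin-associated RNA-binding protein, and Tsr2, a ribosome assembly factor, rose by 1.16 and 1.10 in that fit.

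Some genes separated the groups without passing the test, a separation that was common over all genes. Cdkn1b, the cell cycle inhibitor p27, was at 6.58, 6.27 and 6.47 in 72 h hearts, where it was dark, and 7.16, 7.53 and 7.11 in MCM hearts (-0.83 ± 0.16, adjusted p = 0.0708). Map4, a microtubule-associated protein of muscle, was at 9.03, 8.71 and 9.45 in 72 h hearts and 10.05, 9.78 and 10.11 in MCM hearts (adjusted p = 0.0708). Txnip, a glucose-responsive inhibitor of thioredoxin, was at 12.63, 12.34 and 13.18 in 72 h hearts and 13.77, 13.33 and 13.74 in MCM hearts (adjusted p = 0.0961). All 3 were lower in every 72 h heart than in any MCM heart. Bst2, an interferon-induced antiviral protein, was at 8.24, 8.27 and 7.74 in 72 h hearts and 7.22, 7.04 and 6.36 in MCM hearts (1.21 ± 0.28, adjusted p = 0.168). The medians over 24 tested interferon and antigen presentation genes were 0.05, 0.41 and -0.13 in the 72 h hearts, and 5 of the 24 were 2-fold up in replicate 2, Cd74 and H2-Ab1 of antigen presentation among them.

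Others in this class were marked by the adult wildtype hearts. Rbp7, a retinol-binding protein of endothelium and fat, was at 12.14, 10.21 and 11.24 in 72 h hearts and 12.56, 12.56 and 12.36 in MCM hearts (adjusted p = 0.397), but at 5.23 and 5.95 in adult wildtype. Angptl7 was at 8.62, 8.21 and 7.72 in 72 h hearts and 9.22, 9.25 and 8.76 in MCM hearts, and at 6.0 and 5.87 in adult wildtype. Trnp1 was at 7.61, 7.13 and 7.30 in 72 h hearts and 7.94, 8.23 and 8.04 in MCM hearts, and at 5.72 and 5.68 in adult wildtype. All 3 were dark in adult wildtype, and the 72 h hearts were at least 20.3-fold higher for Rbp7, 2.51-fold for Angptl7 and 1.41-fold for Trnp1 (adjusted p 4.19e-06, 0.000707 and 0.000152). The comparison with adult wildtype shares its 72 h arrays with that against MCM, and also differs in genotype and in sex-linked transcripts. No tamoxifen is listed for the adult wildtype hearts. They were dark for both Xist (mean 4.99) and Eif2s3y (mean 5.63). At 72 h Xist was at 11.44 and 11.59 in replicates 1 and 2, and Eif2s3y at 10.97 in replicate 3. The part of sex in this comparison was not tested. In total 764 genes (7.51%) were called between 72 h and adult wildtype hearts, 389 higher (3.83%) and 375 lower (3.69%). That count was 241 and 254 without adult wildtype replicate 1 and 2, 1254 without 72 h replicate 2, 490 without 72 h replicate 1, 168 in a fit to these 2 groups alone and 2887 with array weights.

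The splicing regulators tied to DM1 differed little on average, and none of the 5 tested was called. Mbnl1 was at 12.73, 12.88 and 12.87 in 72 h hearts and 12.78, 12.63 and 13.07 in MCM hearts, a difference of 0.00 with a 95% interval of -0.27 to 0.27. Mbnl2 was at 13.17, 13.20 and 13.23 in 72 h hearts and 13.12, 13.21 and 13.22 in MCM hearts (interval -0.21 to 0.24). Celf1 was at 10.72, 10.86 and 10.73 in 72 h hearts and 10.74, 10.73 and 10.82 in MCM hearts (interval -0.18 to 0.19). Celf2 was at 11.09, 11.44 and 11.12 in 72 h hearts and 11.34, 11.36 and 11.31 in MCM hearts (interval -0.36 to 0.12). For Celf2, 72 h replicates 1 and 3 lay below every MCM heart and replicate 2 above them. These intervals hold for transcript levels and say nothing of protein, location or splicing. The mouse gene Dmpk was at 13.63, 13.34 and 13.65 in 72 h hearts and 13.71, 13.59 and 13.59 in MCM hearts (interval -0.32 to 0.13). Of 22 other RNA-binding proteins tested, Zfp36l2 alone was called, and 2 of 22 had an unadjusted p below 0.05.

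Lists for the tamoxifen exposure and for heat shock held no called gene. Of 20 listed oestrogen receptor and tamoxifen response genes 8 were tested; limma called none, 2 had an unadjusted p below 0.05, and the medians were 0.10, 0.21 and -0.14. Gper1, the membrane oestrogen receptor, was the member whose groups did not overlap, at 6.12, 6.13 and 6.04 in 72 h hearts, where it was dark, and 6.55, 6.59 and 6.84 in MCM hearts (adjusted p = 0.296). Among 13 heat shock genes none was called and none had an unadjusted p below 0.05, with medians of 0.02, 0.08 and -0.10. Hspb1, a small heat shock protein, was at 13.06, 14.40 and 12.92 in 72 h hearts and 13.24, 13.20 and 12.97 in MCM hearts, again with replicate 2 apart.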

How the data were processed

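RNA from 12 mouse hearts was measured on Illumina bead arrays, 1 array per heart. The deposited per-array files hold the mean bead intensity of 45281 probes without background subtraction or normalization, and a detection score, a fraction between 0 and 1 taken as 1 minus the detection p, per the file headers. No header names the scanner software. The authors also deposited a table of normalized intensity values, in which each array's quantiles are mapped onto those of adult wildtype replicate 1, per their deposited program. It served as an alternative.

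Here, intensities were background-corrected with limma's nec (offset 16), quantile normalized and put on the log2 scale. A probe was kept if its detection p was below 0.01 on all arrays of at least 1 group. Of 18370 kept probes 15659 were named through the platform annotation, and a gene (10167 tested) was represented by its kept probe of highest mean. One linear model over 12 arrays and 5 groups (limma 3.58.1, R 4.3.3, lmFit and eBayes with a trend, 7 residual degrees of freedom) gave differences, standard errors and 95% intervals, with Benjamini-Hochberg adjustment over all genes and a threshold of 0.05. Adjusted p-values come from this fit, or from the same limma fit over all kept probes, without an array or with the replicate block where the text says so. The steps were tested on simulated data. Where one group was not above background, folds are lower bounds.

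Members and gene lists were chosen with earlier results of these data known. Named genes are those called, a fixed set of DM1 and heart genes, list members whose groups did not overlap or that varied most over the 72 h hearts, genes that set each 72 h heart apart, uncalled genes with the largest separation, and genes called without replicate 2. Array numbers limit precision. Alternatives covered background correction, normalization, the probe filter, the model, the replicate number as a block and leaving out each array. Promoter sequences are RefSeq's.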

Additional observations from a re-analysis of the deposited data

How the results depend on the processing

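For the 27 called genes, 470 combinations of gene and alternative could be computed over 18 settings: 406 kept direction and call, 59 kept direction without the call and 5 reversed. All 5 reversals came from using adult wildtype hearts in place of MCM hearts, where the log2 difference was -0.69 for Xirp2, -0.15 for Upk3b, 0.064 for Dynll2, 0.083 for Cwc22 and 0.51 for Rbbp9. The 27 genes called against MCM became 10 with only probes detected on all 12 arrays (7241 genes tested), 15 with a fit to the 6 arrays alone and 561 with array weights, which gave 72 h replicate 2 the lowest weight of the 3 72 h arrays. The 42 probes became 14, 24 and 1849 under the same alternatives. The 764 genes against adult wildtype became 168 with a fit to those 2 groups and 2887 with array weights. Leaving out 1 array gave 18 to 54 genes against MCM (54 without 72 h replicate 3), 29 to 106 probes (106 without 72 h replicate 3) and 241 to 1254 genes against adult wildtype (241 without adult wildtype replicate 1, 1254 without 72 h replicate 2). The cause of these shifts was not tested. Other background corrections, cyclic loess, the authors' value table, no probe filter, robust eBayes and the mean of all kept probes gave 26 to 29 genes. Samples of the same number in both groups deviated together only weakly (correlations 0.07, 0.10 and 0.31, the first under 0.1). The highest correlation of any pair was that of replicate 3 in both groups (0.31). Of unlike numbers, 72 h replicate 1 and MCM replicate 2 were each other's best match (0.20). The samples were taken to share only a number, and whether replicate 3 of both groups shared more was not tested. A fit with the replicate number as a block gave 33 genes, 49 probes and, against adult wildtype, 787 genes. In that fit the calls for Mdh2 (limma adjusted p = 0.0503) and Snora70 (0.0852) were lost. Signals near background limit the folds of dark genes to lower bounds, and 3 hearts a group limit all comparisons.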
